A study of Apostichopus japonicus with 9 samples.

Results

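The miRNA families numbered miR-2004 to miR-2013 were followed in the sea cucumber *Apostichopus japonicus*, in its respiratory tree, at 3 levels of dissolved oxygen (DO). The set was defined by name alone, as the entries with family name miR-2004, miR-2005, miR-2006, miR-2007, miR-2009, miR-2010, miR-2011, miR-2012 or miR-2013. It holds 9 of the 475 entries in the deposited tables (186 known and 289 predicted miRNAs). They belong to 8 of the 9 families named, since no entry of miR-2009 was listed, and the family miR-2006 gave both of its arms. All 9 miRNAs were listed in all 9 libraries, and all 9 were among the 90 entries tested.

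Small RNA libraries were made from animals kept for 3 days at a DO of 2 mg/L (DO2, severe hypoxia), 4 mg/L (DO4, mild hypoxia) or 8 mg/L (DO8, the normoxic control), with 3 libraries per group. All animals had first been acclimated in aerated seawater, and the oxygen of the DO4 and DO2 tanks was lowered with nitrogen gas. The study's methods describe each library as pooled RNA from 3 animals, whereas the labels speak of a single respiratory tree. Either way, the unit of every test below is the library. The limma p-values rest on the spread between libraries within groups, shared over the 3 groups and drawn towards that of the other entries tested. The respiratory tree, a branched organ that opens into the hindgut, was sequenced as whole tissue, so fewer cells of a type and less RNA per cell cannot be told apart. No miRNA is known to define this organ, so its label could not be checked with a marker.

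A miRNA is a short RNA cut from a hairpin precursor, and either arm of the hairpin (5p or 3p) can give a mature form. Bound to an Argonaute protein, it pairs through its seed, the bases near its 5′ end, with target mRNAs and lowers their translation or stability. The families described here are known from echinoderms such as sea urchins and starfish and, for several of them, from hemichordates, a neighbouring group of marine animals, and they are not among the families shared with vertebrates. What most of them regulate is not known, so no role is given for single members.

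The mature sequences are shown because the seed is what sets one family apart from another. They are written 5′ to 3′ as the deposited tables give them, with T for U and with the seed (bases 2 to 8) in capitals.
Aja-miR-2004-3p: tCACACACaaccacaggaagtt
Aja-miR-2005-5p: aGTCCAATagggagggcattgc
Aja-miR-2006-3p: gAGCACACttggtagcggtg
Aja-miR-2006-5p: cATCGCCAccaagtgtacttca
Aja-miR-2007-5p: tATTTCAGgcagtatactggtaa
Aja-miR-2010-3p: tTACTGTTgatgtcagccctt
Aja-miR-2011-3p: cCAAGGTGtgctagtgatgaca
Aja-miR-2012: tAGTACTGgcatatggacattg
Aja-miR-2013-3p: tGCAGCATgatgtagtggtgtt

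The 9 sequences carried 9 different seeds, so the numbering groups families that do not share a targeting sequence. Any pair of them, slid along each other without gaps, had at most 11 identical bases over 22 positions. Of the 9, 6 were 22 nt long, against 27 of the 62 entries listed in every library. A 5′ T stood first in 5 of 9 (55.6%), against 42 of those 62 (67.7%). The median GC content was 45.5%, against 50% in the 62 entries, and ranged from 34.8% in Aja-miR-2007-5p to 60% in Aja-miR-2006-3p.

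Only Aja-miR-2013-3p shared its seed with another entry of the tables, Aja-miR-103-3p, a member of a family well known from vertebrates. Its sequence is shown for the shared capitals.
Aja-miR-103-3p: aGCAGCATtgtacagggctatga
Aja-miR-103-3p was listed in a single library, DO4_3, at a value of 25.3 (40 reads), where Aja-miR-2013-3p stood at 1147. Of the pair with this seed, Aja-miR-2013-3p was thus the form listed in every library.

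Both arms of miR-2006 were among the 9, and their sequences fitted each other as the strands of a hairpin stem. Laid against each other, they faced at 20 positions, of which 16 were Watson-Crick pairs and 2 were G:U pairs, with 2 positions unpaired. The 5p arm extended by 2 nt at its 3′ end and the 3p arm ended flush (0 nt).

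The deposited values are read numbers scaled by 1 factor per library, so values are compared between libraries only under that scaling. Behind the 81 values of the 9 miRNAs stood read numbers within 0.02 of a whole read, from 14 for Aja-miR-2005-5p in DO2_1 to 129873 for Aja-miR-2011-3p in DO4_3. The DO2 libraries held the fewest miRNA reads, 335658 to 1740914 miRNA reads against 4681523 to 6024869 in DO4 and DO8, and 1 read was worth 1.22 to 6.18 units in DO2 and 0.556 to 0.682 units elsewhere. Clean reads were of similar number in all libraries by the study's mapping statistics, so the smaller part of the DO2 reads was miRNA and the larger part other or unannotated reads. This difference in library composition and severe hypoxia cannot be told apart in any comparison with DO2. Other small RNAs moved with the DO2 group as well. The 6 entries of the muscle families miR-1, miR-133 and miR-206 summed to 3.81% to 6.22% of all values in DO2, against 2.24% to 2.63% (DO4) and 1.80% to 2.57% (DO8). The 9 entries of neural families (5 of 6 families listed, miR-219 missing) summed to 0.105% to 0.178%, 0.0487% to 0.0725% and 0.0627% to 0.0698%. miR-375, a miRNA of secretory cells in vertebrates, took 1.38% to 1.80%, 0.235% to 0.630% and 0.535% to 1.10%. The 4 entries of epithelial and ciliary families (3 of 6 families listed; miR-182, miR-183 and miR-449 missing) took 1.66% to 1.87%, 1.41% to 3.77% and 2.32% to 4.49%, so that every DO2 library lay below every DO8 library and DO4 overlapped with both. The 6 entries that resemble rRNA took 0.358% to 3.44% in DO2 against at most 0.0124% elsewhere. Those that resemble tRNA took 0.000345% to 0.00342% (DO2), 0.00150% to 0.00890% (DO4) and 0.00411% to 0.00784% (DO8). For these tRNA-like entries every DO2 library lay below every DO8 library. Families of vertebrate blood and liver took at most 0.00576%. Entries of a list did not all move alike in DO2 against DO8 (log2 change as deposited). For muscle, Aja-miR-1a-3p (0.85), Aja-miR-1 (3.15) and Aja-miR-133 (1.62) were above 0. Aja-miR-133-3p (-0.47) and Aja-miR-133a-5p (-3.79) were below 0. Neural entries tested ranged from -0.75 (Aja-miR-9-5p) to 2.21 (Aja-miR-153-1-p5). Of the epithelial entries, Aja-miR-200 (0.78) was above 0, and Aja-miR-200-3p (-1.50), Aja-miR-34 (-0.93) and Aja-miR-96-5p (-1.32) were below. The part of these shifts in the results below was not tested.

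The 9 miRNAs together made up 4.14% of all miRNA values, taken as the sum of their means over the sum of the means of all entries. The 3 DO2 libraries gave a share of 4.95%, 5.38% and 4.03%, those of DO4 3.00%, 3.88% and 3.98%, and those of DO8 4.20%, 4.23% and 4.68%, or 4.79% ± 0.688 (SD, n = 3), 3.62% ± 0.543 and 4.37% ± 0.268. All 3 DO4 libraries lay below all libraries of the other groups, with DO4_3 (3.98%) close to DO2_3 (4.03%), while DO2 and DO8 overlapped. Without the most abundant entry, DO4 and DO2 overlapped, as given further below. The summed value itself averaged 99105 ± 12285 (DO2), 126759 ± 7393 (DO4) and 133172 ± 9150 (DO8), lowest in the group whose share was highest. All values of a DO2 library summed to 2029412 to 2118834, against 2718921 to 3984844 in the others. Most of this came from a few members. Aja-miR-2011-3p alone gave 51.4% of the sum of the 9 means, and the top 4 gave 95%.

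The 9 miRNAs ranged from abundant to scarce. Aja-miR-2011-3p was among the most abundant miRNAs of the organ, at rank 7 to 9 in every library and 9th by mean value (61568). A middle group followed with Aja-miR-2012 (mean 20169, 13th, rank 12 to 16), Aja-miR-2004-3p (17649, 14th, rank 11 to 18) and Aja-miR-2006-5p (14336, 16th, rank 13 to 18). Aja-miR-2010-3p was next with a mean of 3423 (21st, rank 19 to 26). The lower 4 were Aja-miR-2013-3p (1121, 31st), Aja-miR-2006-3p (728, 33rd), Aja-miR-2007-5p (535, 40th) and Aja-miR-2005-5p (149, 48th). By median rank, Aja-miR-2006-3p and Aja-miR-2007-5p were tied at 34.

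**Figure D1:**
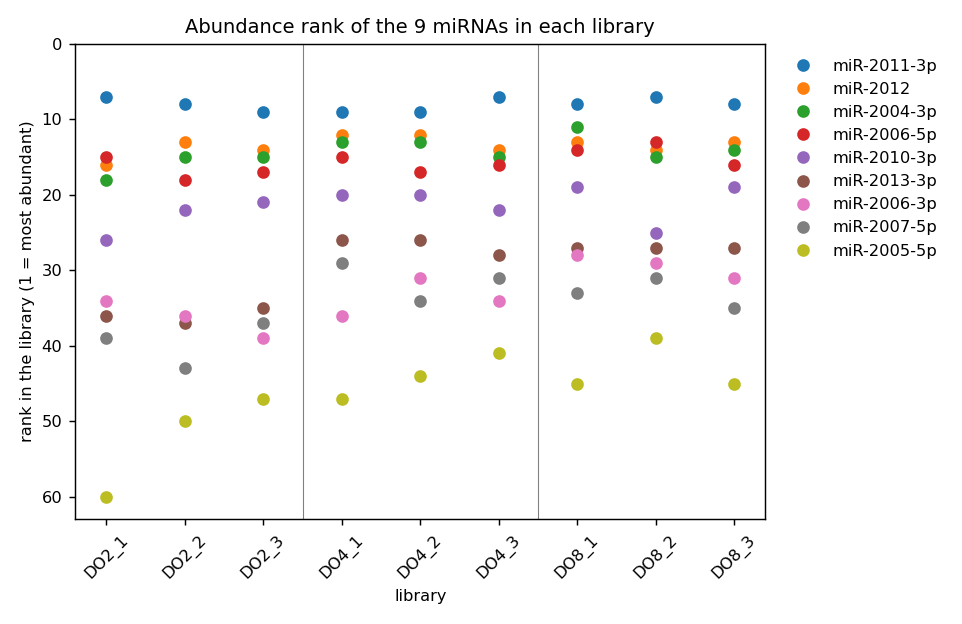
Rank of each of the 9 miRNAs (y axis, 1 = most abundant entry of the library) in the 9 libraries (x axis), with grey lines between the groups DO2, DO4 and DO8 and 1 colour per miRNA. Aja-miR-2011-3p held rank 7 to 9 throughout, and Aja-miR-2013-3p stood at 35 to 37 in DO2 and at 26 to 28 in DO4 and DO8.

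Some steps in this order held in every library and others did not. Aja-miR-2011-3p exceeded Aja-miR-2012 in 9 of 9 libraries with a geometric mean ratio of 3.07, and the ranges of their values did not overlap. The same was true of Aja-miR-2006-5p over Aja-miR-2010-3p (4.15), Aja-miR-2010-3p over Aja-miR-2013-3p (3.15) and Aja-miR-2007-5p over Aja-miR-2005-5p (3.70). Neighbours within the middle group had ranges of values that overlapped, and their order was not tested. Aja-miR-2012 exceeded Aja-miR-2004-3p in 8 of 9 libraries (ratio 1.14), and Aja-miR-2004-3p exceeded Aja-miR-2006-5p in 7 of 9 (1.26). Below, Aja-miR-2013-3p exceeded Aja-miR-2006-3p in 7 of 9 libraries (1.57), the exceptions being DO2_1 and DO2_2, and Aja-miR-2006-3p exceeded Aja-miR-2007-5p in 6 of 9 (1.28).

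**Figure D2:**
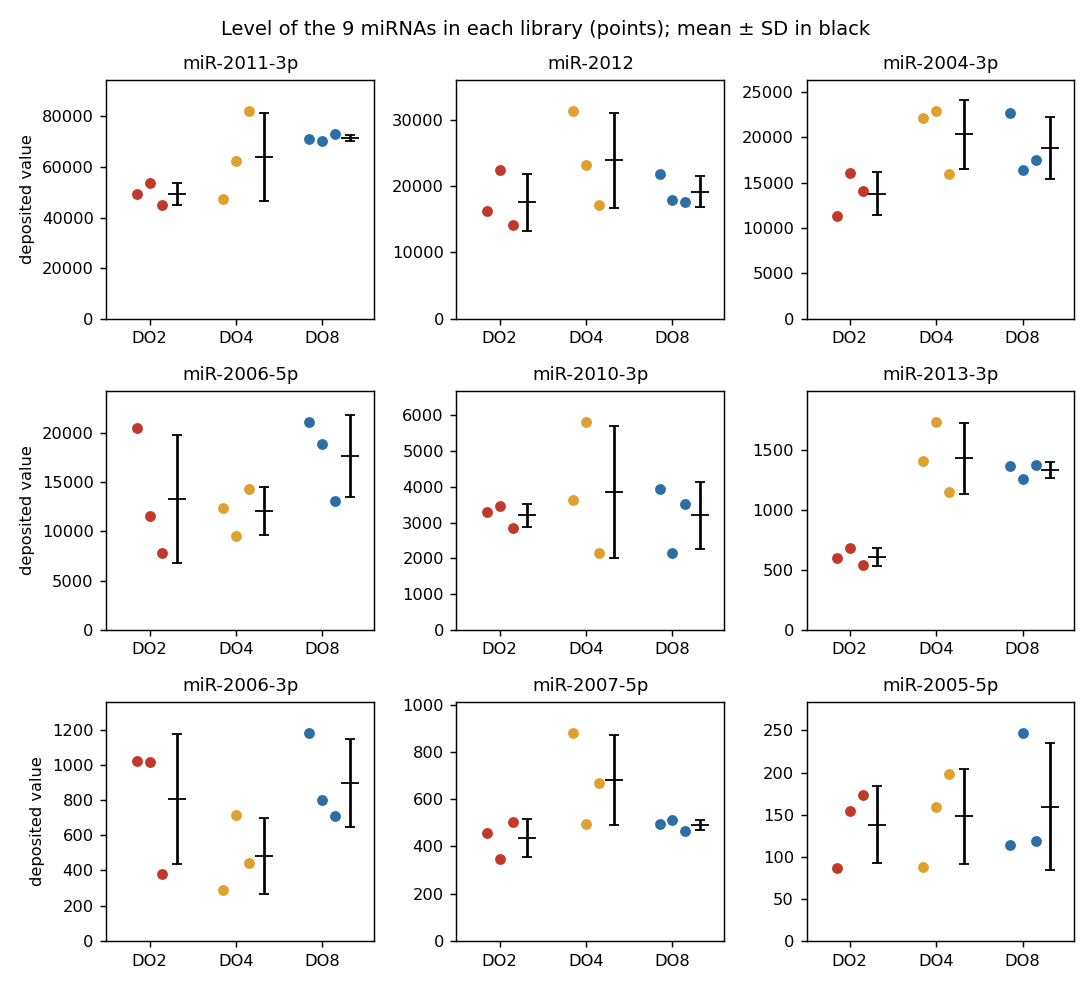
Deposited value (scaled reads, linear y axis from 0) of each of the 9 miRNAs in the 3 libraries of DO2, DO4 and DO8 (points), with the group mean ± SD in black. Aja-miR-2013-3p is the panel in which all DO2 points lie below all others, between 538 and 681, against 1147 to 1730.4 in DO4 and DO8.

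Severe hypoxia was first compared with normoxia, DO2 against DO8. One of the 9 miRNAs, Aja-miR-2013-3p, fell past an adjusted p of 0.05 in limma, and none rose past it. Over all 90 entries tested, 31.1% passed that threshold, 7.78% as lower and 23.3% as higher in DO2, so 1 of 9 was not more than the table as a whole gave. The median log2 change was -0.26 for the 9 miRNAs and -0.03 for all 90, and 8 of the 9 had a change below 0 under the deposited scaling. At equal miRNA totals, with the median of all 90 at 0.51, 1 of the 9 was below 0, Aja-miR-2013-3p, and the calls over all 90 entries were 30 higher and 4 lower, against 21 higher and 7 lower as deposited. With clean reads as library size, the calls were 13 higher and 52 lower, and all 9 miRNAs were among the lower.

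Aja-miR-2013-3p stood at 599.9, 681 and 538 with severe hypoxia, at 1404, 1730.4 and 1147 with mild hypoxia, and at 1365, 1253 and 1374 in normoxia. The DO2 libraries were low together and overlapped with neither other group, while the DO4 libraries lay on both sides of the DO8 libraries. The group means were 606 ± 71.7, 1427 ± 292 and 1331 ± 67.7 (SD, n = 3 each). On the log2(value + 1) scale, DO2 differed from DO8 by -1.14 (SE 0.25, 95% confidence interval -1.70 to -0.57, limma adjusted p = 0.00645). The reads behind it numbered 97, 211 and 442 in DO2 and 1812 to 2538 in the other libraries. From its sequencing, the study also listed Aja-miR-2013-3p as significantly lower in DO2 than in DO4 and in DO8 by its own test.

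The difference in Aja-miR-2013-3p was also seen in measures that do not depend on the scaling factor, though it was smaller there. As a share of all miRNA values, Aja-miR-2013-3p made up 0.0254% to 0.0336% with severe hypoxia, 0.0341% to 0.0529% with mild hypoxia and 0.0399% to 0.0505% in normoxia. The DO2 shares lay below all others, but the highest DO2 and the lowest DO4 library were close. With every library set to the same miRNA total, the change against DO8 was -0.58 and no longer passed (adjusted p = 0.129). Within the summed value of the 9 miRNAs alone, it took 0.613% ± 0.0253 (SD, n = 3) with severe hypoxia, 1.13% ± 0.258 with mild hypoxia and 1.00% ± 0.0687 in normoxia.

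Aja-miR-2011-3p, the most abundant of the 9, stood at 49316, 53513 and 44986 with severe hypoxia, at 47248, 62296 and 82216 with mild hypoxia, and at 71027, 70492 and 73018 in normoxia. All DO2 libraries lay below all DO8 libraries, and the DO4 libraries reached from within the DO2 range to above every DO8 library. The coefficient of variation was 1.86% in DO8, 8.65% in DO2 and 27.4% in DO4. The change of -0.54 against DO8 (SE 0.22, 95% confidence interval -1.04 to -0.04) missed the threshold (limma adjusted p = 0.0897). Fitted on the DO2 and DO8 libraries alone, it passed (adjusted p = 0.0272), and at equal miRNA totals it was 0.01. As a share of all miRNA values (SD, n = 3), it made up 2.38% ± 0.257 in DO2 and 2.36% ± 0.306 in DO8. From its sequencing, the study listed this miRNA as significantly lower in DO2 than in DO8 by its own test. By real-time PCR, the study reported this miRNA as significantly higher with severe hypoxia than with mild hypoxia or normoxia. That direction is opposite to the one in the deposited values. The study's primer list holds none for this miRNA and some for Aja-miR-2013-3p, so which was measured is unclear. For Aja-miR-2013-3p too, a rise would be opposite to the deposited values. The study reported a rise with severe hypoxia for every miRNA it selected for real-time PCR. Some of the others among these were also lower in DO2 than in DO8 in its sequencing. Why the measures differ was not tested.

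Aja-miR-2004-3p stood at 11287, 16047 and 14059 with severe hypoxia, at 22161, 22906 and 15933 with mild hypoxia, and at 22669, 16337 and 17439 in normoxia. The DO2 libraries again lay below all DO8 libraries, although the highest of them was close to the lowest DO8 library, and the DO4 range covered that gap. The change against DO8 was -0.45 (SE 0.24, limma adjusted p = 0.181). With Aja-miR-2013-3p and Aja-miR-2011-3p, this made 3 of the 9 miRNAs whose DO2 libraries all lay below DO8, and in 0 of 9 did they all lie above it. In the whole table, 52.2% of entries were separated, 22.2% downwards and 30% upwards.

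The other 6 miRNAs overlapped between DO2 and DO8. Aja-miR-2012 had 16228, 22334 and 14091 in DO2 and 21802, 17933 and 17569 in DO8, a change of -0.14 (adjusted p = 0.712). Aja-miR-2006-5p had 20514, 11554 and 7817 in DO2, the widest relative spread of any group among the 4 most abundant miRNAs, and 21104, 18828 and 13039.6 in DO8, a change of -0.49 (adjusted p = 0.329). Its partner Aja-miR-2006-3p had 1020.5, 1017 and 379 in DO2 and 1180.2, 802 and 709.7 in DO8 (-0.26, adjusted p = 0.711). In both arms of miR-2006 the library DO2_3 was the lowest of its group. Aja-miR-2010-3p had 3309, 3459.8 and 2847 in DO2 and 3952, 2159.8 and 3511 in DO8 (0.04, adjusted p = 0.916). Aja-miR-2007-5p had 458, 345 and 503 in DO2 and 495, 510.3 and 466 in DO8 (-0.19, adjusted p = 0.680). Aja-miR-2005-5p, the scarcest, had 86.6, 155 and 173 in DO2 and 114, 247 and 118 in DO8 (-0.17, adjusted p = 0.787). The DO2 values of Aja-miR-2005-5p rest on 14, 48 and 142 reads, fewer than for any other of the 9 in each DO2 library.

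**Figure D3:**
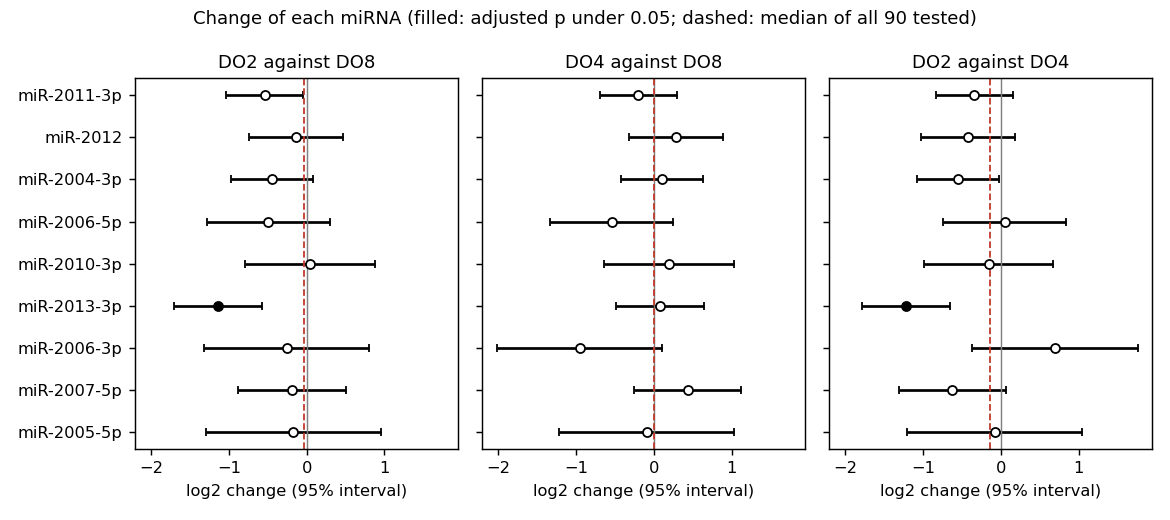
log2 change (x axis, points) with its 95% confidence interval for each of the 9 miRNAs in the 3 comparisons, from limma on log2(value + 1), filled where the adjusted p was under 0.05, with the median of all 90 tested entries as a dashed line. Aja-miR-2013-3p is the filled point in DO2 against DO8 (-1.14) and in DO2 against DO4 (-1.22), and no point is filled in DO4 against DO8.

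Mild hypoxia was compared with normoxia next, DO4 against DO8. None of the 9 miRNAs passed the threshold, and neither did any of the 90 entries (0%). At an unadjusted limma p under 0.05, 1 of the 90 entries (1.11%) and 0 of the 9 miRNAs passed, and a separate test for each miRNA gave 5 of 90 and again 0 of 9. The groups did not overlap in 7.78% of all entries (5.56% with DO4 higher and 2.22% with DO4 lower) and in 0 of the 9. Of the 9 changes, 4 were below 0 and 5 above, with a median of 0.08 against 0.00 for all 90.

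The largest change between DO4 and DO8 was in Aja-miR-2006-3p, with 291, 715 and 442 in DO4 against 1180.2, 802 and 709.7 in DO8. DO4_2 reached above the lowest DO8 library, so the groups overlapped. The change was -0.95 (SE 0.48, limma adjusted p = 0.802). The other arm, Aja-miR-2006-5p, had 12350.3, 9478 and 14335 in DO4 and a change of -0.54 (adjusted p = 0.802), and DO4_3 stood within the DO8 range.

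Changes above 0 were smaller, and none passed the threshold. Aja-miR-2007-5p had 879, 496 and 667 in DO4, a change of 0.43 against DO8 (limma adjusted p = 0.802), with a coefficient of variation far above that of the tight DO8 group (681 ± 192 against 491 ± 22.3). Aja-miR-2012 had 31307, 23203 and 17056 in DO4, a change of 0.28 (adjusted p = 0.802), with DO4_1 the highest and DO4_3 the lowest of the DO4 and DO8 libraries. Aja-miR-2010-3p had 3619, 5814 and 2137 in DO4 and a change of 0.19 (adjusted p = 0.874). The remaining changes were -0.20 for Aja-miR-2011-3p, 0.11 for Aja-miR-2004-3p, -0.09 for Aja-miR-2005-5p (87.3, 159 and 198 in DO4) and 0.08 for Aja-miR-2013-3p. For Aja-miR-2013-3p the 95% interval of this difference reached from -0.48 to 0.65, which does not include its change in DO2 against DO8 as deposited. At equal miRNA totals that DO2 change was smaller, so this comparison of sizes holds for the deposited scaling only.

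The hypoxic groups were then compared with each other, DO2 against DO4. Because DO2 enters this comparison and that with DO8, they share libraries, and their values are given side by side. Aja-miR-2013-3p was again the miRNA that fell (-1.22, SE 0.25, 95% confidence interval -1.78 to -0.66, limma adjusted p = 0.00422), 1 of 9. Over all 90 entries 31.1% passed, 6.67% as lower and 24.4% as higher, and 41.1% had an unadjusted p under 0.05, as did 2 of the 9. Aja-miR-2013-3p was also the only 1 of the 9 whose DO2 libraries all lay below DO4, which held for 11.1% of all entries.

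The other 8 miRNAs did not pass in DO2 against DO4. Aja-miR-2004-3p had a change of -0.56 (SE 0.24, limma adjusted p = 0.106). It passed when DO4_3, the lowest DO4 library for this miRNA, was left out (-0.72, adjusted p = 0.0472). The change was -0.62 for Aja-miR-2007-5p (adjusted p = 0.157), -0.43 for Aja-miR-2012 (0.243), -0.34 for Aja-miR-2011-3p (0.249), -0.15 for Aja-miR-2010-3p (0.748) and -0.08 for Aja-miR-2005-5p (0.885), none of them past the threshold. The values above 0 were those of the miR-2006 arms, 0.70 for Aja-miR-2006-3p (adjusted p = 0.267, but 1.46 and 0.0440 at equal miRNA totals) and 0.05 for Aja-miR-2006-5p (0.896). The median of the 9 changes was -0.34, against -0.14 for all 90 entries, with 7 of the 9 below 0. At equal miRNA totals the median of all 90 was 0.62, 1 of the 9 was below 0 (Aja-miR-2013-3p, -0.46, adjusted p = 0.236), and the calls were 36 higher and 1 lower, against 22 higher and 6 lower as deposited and 13 higher and 50 lower with clean reads.

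Over the 3 oxygen levels, the group means under the deposited scaling did not follow a common course. For Aja-miR-2011-3p the mean was lowest in DO2 and highest in DO8 (49272 ± 4264, 63920 ± 17541 and 71512 ± 1331). For Aja-miR-2012 (17551 ± 4277, 23855 ± 7148 and 19101 ± 2346), Aja-miR-2004-3p (13797 ± 2391, 20333 ± 3829 and 18815 ± 3383) and Aja-miR-2007-5p (435 ± 81.0, 681 ± 192 and 491 ± 22.3) it was highest in DO4 and lowest in DO2. The means of both miR-2006 arms were lowest in DO4, with 13295 ± 6525, 12055 ± 2442 and 17657 ± 4158 for Aja-miR-2006-5p and 805 ± 370, 483 ± 215 and 897 ± 249 for Aja-miR-2006-3p. The means of Aja-miR-2010-3p (3205 ± 319, 3857 ± 1850 and 3208 ± 934) and Aja-miR-2005-5p (138 ± 45.5, 148 ± 56.2 and 160 ± 75.6) had groups that overlapped in every comparison. The groups of Aja-miR-2012, Aja-miR-2007-5p and both miR-2006 arms also overlapped in every comparison, so the order of their means is a description only. In the fit of all 9 libraries, the low DO2 level of Aja-miR-2013-3p was the only 1 of these differences to pass.

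Both arms of miR-2006 come from 1 precursor, and their ratio within a library does not depend on the scaling. The 5p arm exceeded the 3p arm in every library, by 20.1, 11.4 and 20.7 times with severe hypoxia, 42.4, 13.3 and 32.4 times with mild hypoxia and 17.9, 23.5 and 18.4 times in normoxia. The ratio varied least in DO8 and most in DO4, whose libraries lay on both sides of the DO8 libraries and overlapped with DO2. The log2 ratio differed by -0.24 between DO2 and DO8 (two-sided exact permutation test, p = 0.6), by 0.41 between DO4 and DO8 (p = 0.5) and by -0.65 between DO2 and DO4 (p = 0.3). After adjustment over these 3 comparisons each p was 0.6, and 0.1 is the smallest p that 3 against 3 libraries allow. With 1 library left out, these differences ranged from -0.39 to 0.04, from 0.07 to 0.91 and from -1.14 to -0.31, so that the first crossed 0.

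Which of the 9 moved together was described by the SD over the 9 libraries of the log2 ratio of a pair, in which the scaling again cancels and a low value means that the ratio was kept. The points share libraries and depth, and the libraries fall into DO2 and the rest, so the values are a description with no test. Over the 36 pairs the SD ranged from 0.24 to 1.02 with a median of 0.63. The closest pair was Aja-miR-2012 and Aja-miR-2004-3p (0.24), and each was the closest of all 61 other entries to its partner. Their ratio stayed between 0.962 and 1.44, and in the 6 DO4 and DO8 libraries alone the SD was 0.20. Their sequences share no seed, and both were high in DO4_2 and low in DO2_1 and DO2_3. The least alike pair was Aja-miR-2006-3p and Aja-miR-2007-5p (1.02). The miR-2006 arms had an SD of 0.59. Seen from Aja-miR-2006-5p, 11 other entries were closer than its own partner arm.

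**Figure D4:**
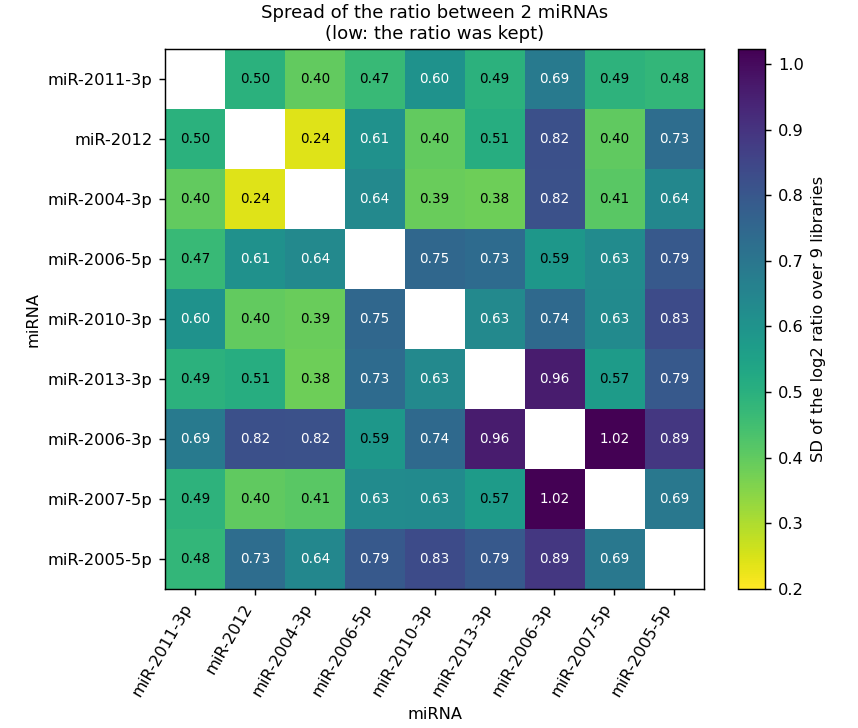
SD over the 9 libraries of the log2 ratio of each pair of the 9 miRNAs (colour and number in each cell, the same miRNAs on both axes). The lowest value is that of Aja-miR-2012 and Aja-miR-2004-3p (0.24) and the highest that of Aja-miR-2006-3p and Aja-miR-2007-5p (1.02).

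The 3 entries most like each miRNA were taken from all 61 other entries by the same SD over 9 libraries. Aja-miR-2013-3p was nearest to Aja-miR-71-5p (0.29), Aja-miR-10 (0.31), which is the most abundant entry of the tables, and Aja-miR-2004-3p (0.38). Aja-miR-2004-3p came after Aja-miR-2012 nearest to Aja-miR-92 (0.29) and Aja-miR-10 (0.31). Aja-miR-2010-3p was nearest to Aja-miR-92 (0.37), Aja-let-7-5p (0.37) and Aja-miR-2004-3p (0.39). Aja-miR-2004-3p was thus among the 3 nearest entries of Aja-miR-2012, Aja-miR-2013-3p and Aja-miR-2010-3p. Aja-miR-2007-5p was nearest to Aja-let-7a-5p (0.23), Aja-miR-92-3p (0.25) and Aja-let-7b-3p (0.25), and none of the 9 was among its closest 3.

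The nearest entries of the miR-2006 arms, Aja-miR-2011-3p and Aja-miR-2005-5p overlapped in part. Aja-miR-2006-5p was nearest to Aja-miR-124 (0.36), a miRNA of neurons in many animals, Aja-miR-193-3p (0.40) and Aja-miR-2011-3p (0.47). Aja-miR-2006-3p was nearest to Aja-miR-184-3p (0.41), Aja-miR-124-3p (0.46) and Aja-miR-193-3p (0.49). Aja-miR-2011-3p was nearest to Aja-miR-133-3p (0.33), a muscle miRNA in vertebrates, Aja-miR-31a-5p (0.34) and Aja-miR-124 (0.35). Aja-miR-2005-5p was nearest to Aja-miR-2011-3p (0.48), Aja-miR-252a (0.49) and Aja-miR-31a-5p (0.51). It was the miRNA of the 9 with the fewest reads, and its nearest entry was farther than that of any of the other 8. For comparison, the median SD of each of the 9 to all 61 other entries lay between 0.60 and 0.95.

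The ratio between Aja-miR-2011-3p and Aja-miR-2013-3p, chosen after their values were seen, set the DO2 libraries apart without use of the scaling. It was 82.2, 78.6 and 83.6 with severe hypoxia, 33.6, 36.0 and 71.7 with mild hypoxia and 52.0, 56.3 and 53.2 in normoxia. All 3 DO2 libraries lay above all others, so that Aja-miR-2013-3p was low in DO2 relative to Aja-miR-2011-3p. Against Aja-miR-2004-3p, the nearest of the 9, the ratio of Aja-miR-2004-3p to Aja-miR-2013-3p was 18.8 to 26.1 with severe hypoxia, 13.2 to 15.8 with mild hypoxia and 12.7 to 16.6 in normoxia. In the 6 DO4 and DO8 libraries this pair had an SD of 0.16.

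**Figure D5:**
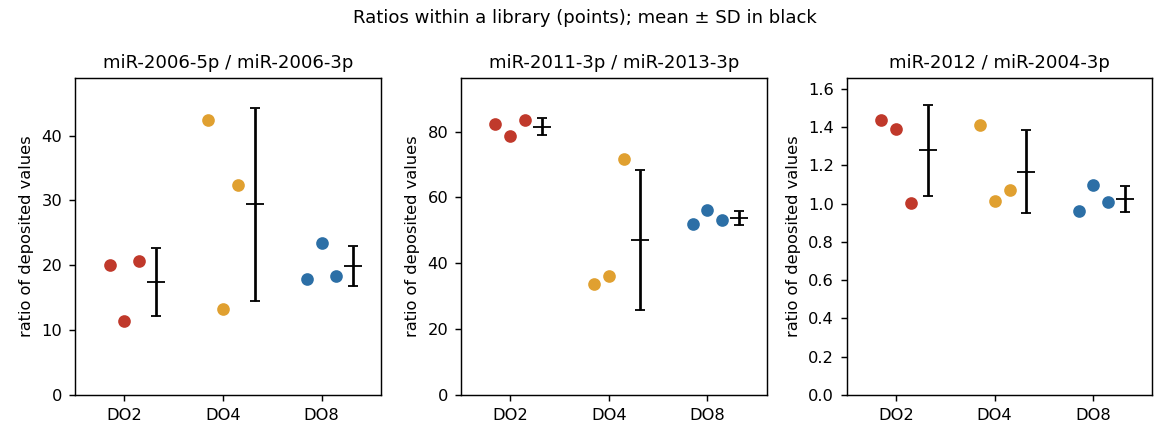
Ratio of the deposited values of 2 miRNAs within a library (linear y axis from 0) for miR-2006-5p over miR-2006-3p, miR-2011-3p over miR-2013-3p and miR-2012 over miR-2004-3p in DO2, DO4 and DO8 (points), with the group mean ± SD in black. The middle panel has its 3 DO2 points above all others, at 78.6 to 83.6 against 33.6 to 71.7.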

How the data were processed

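Small RNAs of 9 libraries were sequenced by the authors, who trimmed the reads, removed those of rRNA, tRNA, snRNA and snoRNA, and aligned the rest, with few mismatches allowed, to animal miRNAs of miRBase, keeping the most expressed form of a family. Reads of near-identical forms may therefore be summed in 1 entry. The submitters' processing notes name CASAVA 1.5. The deposited values are a signal, reads times 1 factor per library; the study's methods name RPM over clean reads, whereas sums of 2029412 to 3984844 were found per library, and the origin of the factor is not given in the sources used here. Across the whole table, 65.5% to 81.1% of the values of a library were whole reads within 0.02. Reads were worked out from the steps between values and the study's read numbers.

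The 90 entries that at least 1 group listed in each of its 3 libraries were fitted as log2(value + 1) with limma 3.58.1 in R 4.3.3 (1 mean per group, all libraries, variance trend), with Benjamini-Hochberg adjustment over the 90. The test was checked on simulated data with changes of known size. That simulation held no shift in library composition, so it does not bear on the choice of scaling. For ratios, two-sided exact permutation tests were used (Python 3.11.15, numpy 2.4.6, pandas 2.3.3, scipy 1.17.1), and figures were drawn with matplotlib 3.10.9. All entries with the family numbers given were named; the 3 nearest entries were those with the smallest SD of the log2 ratio, for miRNAs with a mean of at least 100. The alternatives were other scalings, pseudocounts, filters, tests, a replicate block and leaving out each library. The miRNAs, lists and tests were chosen with earlier results of these data known. No genome was used, so no positions are given.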

Additional observations from a re-analysis of the deposited data

How the results depend on the processing

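The low share of miRNA among the DO2 reads limits every comparison with DO2, and the direction of most changes depended on the scaling. In DO2 against DO8, 1 miRNA was called, beside 28 of all 90 entries. This count became 0 at equal miRNA totals (34 of 90 entries called), also without miR-6236 and miR-6240 (24 of 84). With no filter on the entries tested it was 0 as well (31 of 475). It became 2 in the fit of these groups alone (32 of 90) and in the unadjusted test for each miRNA (23 of 90). With clean reads as library size it was 9, all lower, beside 65 of 90 entries, and the median log2 change of all entries was -1.52. In DO2 against DO4 the count was 1 in the main fit (28 of 90 entries called), 0 with no filter and 9 with clean reads. It was 1 to 2 when 1 library was left out. Calls over all entries are not given for the no-filter and left-out fits, so those counts are not set against the rest. At equal totals the 1 miRNA called was Aja-miR-2006-3p, as higher (1.46, limma adjusted p = 0.0440). The calls over all entries at equal totals and with clean reads are given above with that comparison. In DO4 against DO8 the count was 0 throughout. Without Aja-miR-10, the most abundant entry, the 9 together took 8.67% (DO2), 7.30% (DO4) and 9.25% (DO8) of the values. There the DO4 libraries (6.13% to 8.04%) overlapped with DO2 (6.65% to 10.8%) and stayed below DO8 (8.32% to 9.78%). The highest mean was that of DO8, whereas with all entries it was that of DO2.

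Aja-miR-2013-3p was below 0 in 16 of 16 alternatives in both comparisons with DO2, and its adjusted p was 0.0081 to 0.0365 (against DO8) and 0.0043 to 0.0121 (against DO4) with 1 library left out. It was -0.58 and -0.56 (against DO8) and -0.46 and -0.43 (against DO4) at equal totals with and without miR-6236 and miR-6240, and missed the threshold there and with no filter.

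At equal totals, with and then without miR-6236 and miR-6240, the change in DO2 against DO8 turned to 0.11 and 0.13 for Aja-miR-2004-3p, 0.38 and 0.41 for Aja-miR-2005-5p, 0.30 and 0.32 for Aja-miR-2006-3p, 0.059 and 0.087 for Aja-miR-2006-5p, 0.36 and 0.39 for Aja-miR-2007-5p, 0.013 and 0.040 for Aja-miR-2011-3p, and 0.41 and 0.44 for Aja-miR-2012. In DO2 against DO4 it turned to 0.21 and 0.24 for Aja-miR-2004-3p, 0.68 and 0.71 for Aja-miR-2005-5p, 0.14 and 0.17 for Aja-miR-2007-5p, 0.61 and 0.64 for Aja-miR-2010-3p, 0.42 and 0.45 for Aja-miR-2011-3p, and 0.34 and 0.37 for Aja-miR-2012. In DO4 against DO8 it turned to -0.10 in both for Aja-miR-2004-3p, -0.017 for Aja-miR-2010-3p and -0.13 for Aja-miR-2013-3p. With clean reads it turned to -2.16 for Aja-miR-2010-3p (DO2 against DO8), -0.057 for Aja-miR-2004-3p and -0.082 for Aja-miR-2013-3p (DO4 against DO8), and -1.31 for Aja-miR-2006-3p and -1.99 for Aja-miR-2006-5p (DO2 against DO4). With median-ratio factors it turned to -0.028 for Aja-miR-2010-3p (DO2 against DO8) and -0.088 for Aja-miR-2006-5p (DO2 against DO4).

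With 1 library left out, changes that crossed 0 ranged, in DO2 against DO8, from -0.37 to 0.19 for Aja-miR-2005-5p, -0.50 to 0.22 for Aja-miR-2006-3p, -0.22 to 0.21 for Aja-miR-2010-3p, -0.33 to 0.0022 for Aja-miR-2012 and -0.39 to 0.04 for the log2 ratio of the miR-2006 arms; in DO2 against DO4, from -0.42 to 0.22 for Aja-miR-2005-5p, -0.32 to 0.37 for Aja-miR-2006-5p and -0.52 to 0.20 for Aja-miR-2010-3p; and in DO4 against DO8, from -0.34 to 0.27 for Aja-miR-2005-5p, -0.16 to 0.56 for Aja-miR-2010-3p, -0.40 to 0.0013 for Aja-miR-2011-3p and -0.067 to 0.23 for Aja-miR-2013-3p. Why these changed was not tested.

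No pairing was seen between libraries with the same number. Their deviations from the group means correlated at -0.37 to 0.23 over 9 pairs (2 over 0.1), against -0.47 to 0.43 over the 18 other pairs. With so few libraries per group, this check cannot exclude a pairing. With the replicate block, the limma adjusted p of Aja-miR-2013-3p became 0.0147 (DO2 against DO8) and 0.0105 (DO2 against DO4). The counts with this block were again 1 (DO2 against DO8, beside 26 of all 90 entries), 0 (DO4 against DO8) and 1 (DO2 against DO4). For the last of these, calls over all entries are not given.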

Other observations

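The neighbouring families miR-2001, miR-2002 and miR-2008 gave 6 further entries, of which 4 were tested under the deposited scaling. Aja-miR-2008 reached 3463, 2905 and 2770 with severe hypoxia, 419, 884 and 1195 under DO4 and 883, 1021 and 943 at normoxia, so all DO2 libraries lay above all others. It rose by 1.68 on the log2 scale against DO8 (limma adjusted p = 0.00585) and by 1.99 against DO4 (adjusted p = 0.00194), opposite in direction to Aja-miR-2013-3p. Aja-miR-2002-3p reached 2400, 1924 and 481 with severe hypoxia, 61.5, 649 and 113 under DO4 and 349, 251 and 271 at normoxia. It rose against DO4 (2.97, adjusted p = 0.0223), while its change of 2.18 against DO8 missed the threshold (adjusted p = 0.0733). Aja-miR-2008-5p (-1.15 in DO2 against DO8, adjusted p = 0.130) and Aja-miR-2002a-3p (-1.62, adjusted p = 0.392) did not pass. Aja-miR-2001-5p was listed in DO8_3 alone, at 2.90, and Aja-miR-2002b-3p in 3 libraries.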
